A study of Saccharomyces cerevisiae with 24 samples.

Results

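The 10 histone genes of budding yeast were followed through 12 FAIRE peak lists: HTA1, HTB1, HTA2, HTB2, HHT1, HHF1, HHT2, HHF2, HTZ1 and HHO1, out of 6000 nuclear protein-coding genes with a usable upstream window. They were taken by name, with earlier results of these data known, and no threshold on a measured value entered the choice. Each gene was examined in the 500 bp before its start codon, in the DNA it shares with its divergent neighbour, and over its own coding sequence. FAIRE (formaldehyde-assisted isolation of regulatory elements) enriches DNA that is loosely held by protein. Fixed, sonicated chromatin is extracted with phenol-chloroform, the DNA that stays in the watery phase is sequenced, and a peak marks where it exceeds unfixed input DNA.

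All samples came from giant colonies of strain BY4742 at 3 days, grown at one temperature on glycerol and ethanol medium with a pH indicator dye. BY4742 is a haploid laboratory strain of mating type alpha that lacks working copies of HIS3, LEU2, LYS2 and URA3, and every group shared this genotype. The groups differed only in the biomass used, which was 4 mg, 20 mg, 100 mg or 500 mg, with 3 biological replicates of each FAIRE sample and 3 matching inputs, 24 samples in all. The labels say that subpopulations of cells were lifted from the colonies with a spatula but not which ones, so each library averages over cells of unstated position and state. The series title names the purpose, which was to adapt the assay to small numbers of cells.

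Histones are the proteins around which DNA is wound into nucleosomes. HTA and HTB genes encode H2A and H2B, HHT and HHF genes encode H3 and H4, and each of the 4 core proteins has a pair of gene copies. The copies sit as 4 divergent pairs, H2A beside H2B and H3 beside H4, each pair driven from one shared stretch of noncoding DNA that holds upstream activating elements bound by Spt10 and is switched on mainly in S phase. The HIR repressor complex acts on these promoters outside S phase, with HTA2-HTB2 known as the pair that escapes it. HTZ1 encodes the variant H2A.Z, found in nucleosomes next to promoters, and HHO1 encodes the linker histone H1.

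The lists held between 4180 peaks (100 mg replicate 1) and 6439 peaks (20 mg replicate 2), and no pair of lists held identical values. Their peaks covered 1961 to 2521 kb at 4 mg, 2506 to 2968 kb at 20 mg, 1742 to 2307 kb at 100 mg and 2525 to 2668 kb at 500 mg. Read totals were not analysed here, and the labels name no batch or date. Fold enrichment, the authors' ratio of FAIRE over input at a summit, was used to describe peaks. Percentiles inside a list were taken by the deposited −log10 p.

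All 8 core histone genes and HTZ1 had a peak over at least 50 bp of the 500 bp window in every library, as did 23.6% of all genes. By the same rule the linker histone gene HHO1 had a peak over its window in 7 libraries. In all 12 libraries a peak had its summit inside the HHO1 coding sequence. A promoter is called marked here if the summit of a peak fell in the 500 bp before the start codon. HTB1, HTA2, HTB2, HHT1, HHF1, HHT2, HHF2 and HTZ1 were marked in all 12 libraries, 8 of the 10 genes, where 9.73% of all genes were. HTA1 was marked in 7 libraries and HHO1 in 1. The count of members was 4 with peaks of a −log10 q of 5 or more (8.38% of all genes) and 4 with the 3000 strongest peaks of each list (5.58%). In both cases HHT1, HHF1, HHT2 and HHF2 left the count. HHT2 and HHF2 were still marked in 11 libraries under both rules. HHT1 and HHF1 were marked in 11 libraries by −log10 q and in 5 with the strongest peaks. Divergent partners share their summits, so the 8 genes amount to 5 separate promoters. Of all 1415 divergent intergenic regions, 16.3% held a summit in all 12 libraries and 12.3% held exactly 1 summit in each, as did all 4 core histone pairs and the region upstream of HTZ1. In these bulk samples, a promoter open in more cells and one more open in each cell cannot be told apart.

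**Figure D1:**
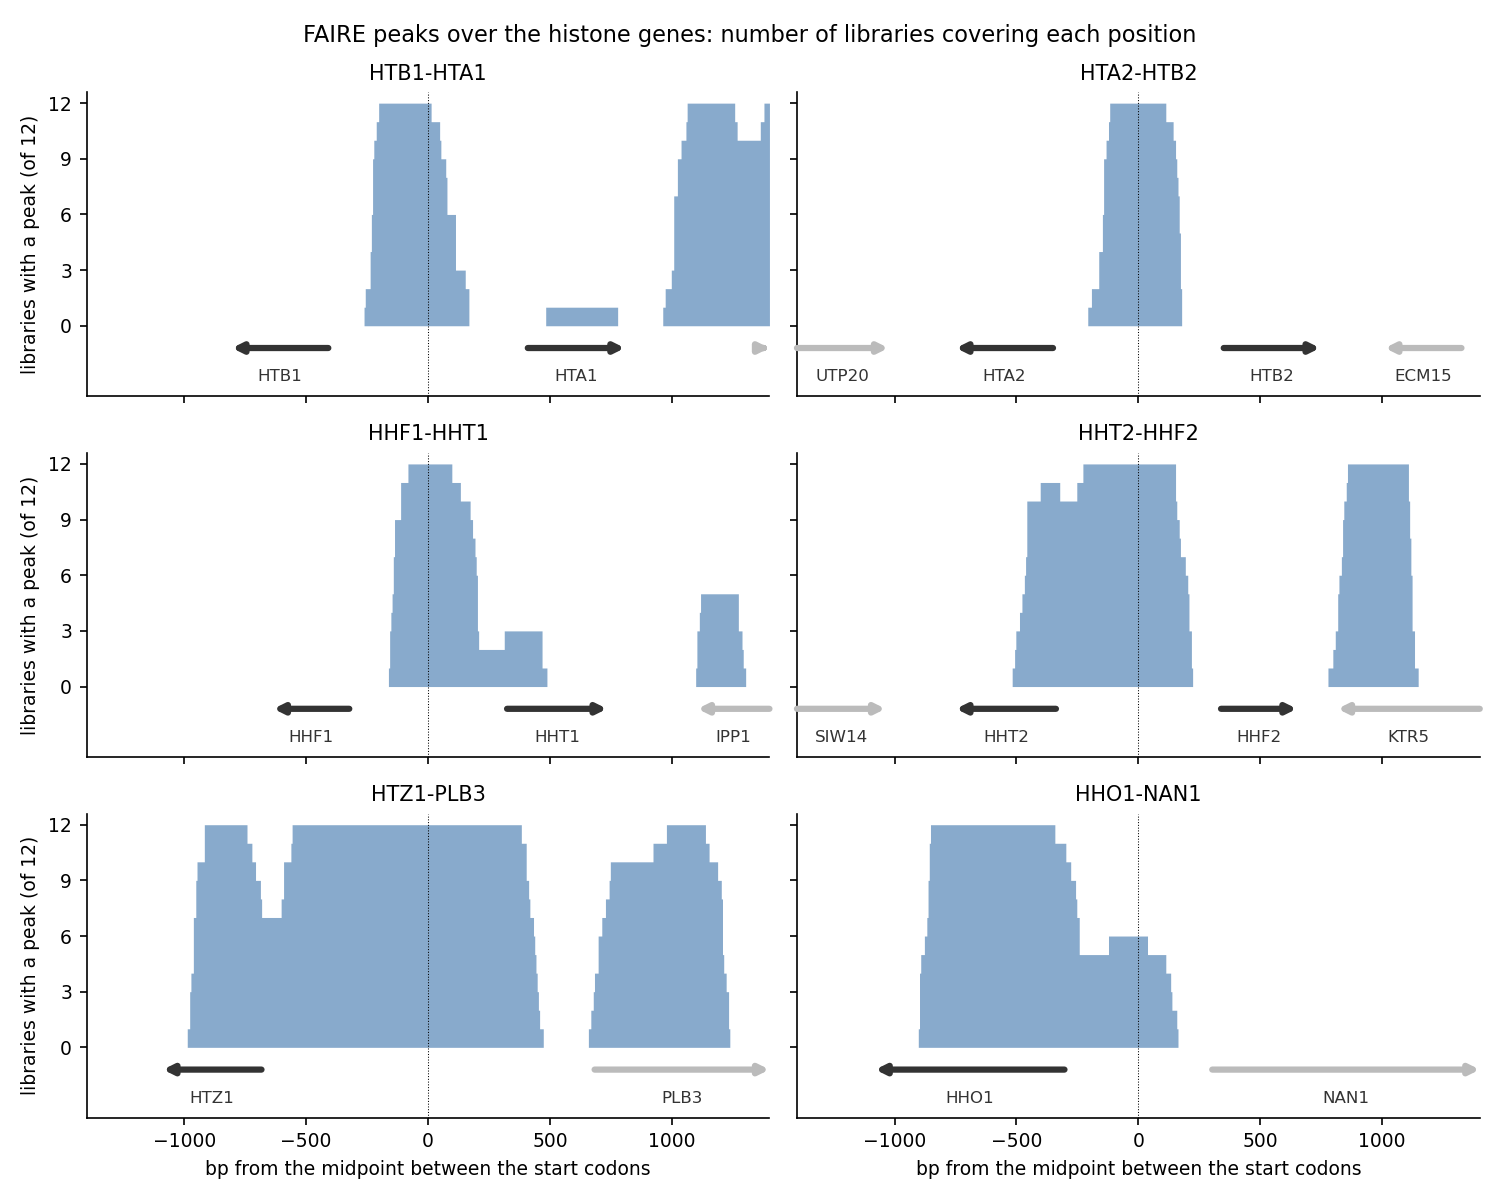
Number of the 12 libraries with a peak over each position (vertical axis) against the distance in bp from the midpoint between the start codons (horizontal axis), for the 6 regions upstream of histone genes. Arrows show coding sequences in their direction of transcription, dark for histone genes and grey for neighbours. The 4 core pairs carry a block covered in 12 libraries between the genes, the HTZ1 block is 941 bp long, and the HHO1 block lies inside the gene.

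The H2A and H2B promoter HTB1-HTA1 carried a peak that sat closer to HTB1. It spans chromosome IV 914713 to 915529 (build R64, 1-based), 817 bp of noncoding DNA. The stretch from 914918 to 915131, 214 bp long, was covered in all 12 libraries, and 385 bp of the region was covered in none. The summit lay 339, 317 and 308 bp from the HTB1 start codon in replicates 1, 2 and 3 at 4 mg, and 335, 309 and 316 bp at 20 mg. It lay at 345, 323 and 328 bp at 100 mg, and 321, 334 and 298 bp at 500 mg. The ranges of all 4 biomasses overlap, and the SD over the 12 libraries was 14.0 bp.

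For HTA1 the same summit sat at the edge of the 500 bp window. Measured from HTA1 it lay between 473 and 520 bp upstream, with a median of 496 bp. In 7 libraries it fell at 497 bp or nearer, inside the window, and in the other 5 it fell at 501 bp or beyond. A peak overlapped the HTA1 window by at least 50 bp in 12 libraries, against 23.6% of all genes, and a window of 550 bp, chosen after seeing these distances, marked HTA1 in 12 libraries (11.4% of all genes). HTA1 was marked in all libraries with 1000 bp too, where 26.2% of all genes were.

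HTA2-HTB2, the other H2A and H2B pair, had the most sharply placed summit of the histone promoters. Its region runs over chromosome II 235793 to 236491, 699 bp, with 227 bp (236026 to 236252) covered in every library. From the HTA2 start codon the summit lay at 374, 364 and 345 bp at 4 mg, 353, 364 and 361 bp at 20 mg, 347, 359 and 350 bp at 100 mg, and 347, 351 and 347 bp at 500 mg. The mean was 355 bp from HTA2 and 345 bp from HTB2, which is close to the middle of the region. All 12 summits fell within 29 bp, with an SD of 9.10 bp. Among 169 other divergent regions with exactly 1 summit in each library, the median SD was 18.9 bp (quartiles 12.4 and 33.6 bp), and 14 of the 169 had an SD as small as that of HTA2-HTB2 or smaller.

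The H3 and H4 promoter HHF1-HHT1 was marked in every library but by the weakest peaks of the 4 pairs. It lies on chromosome II 255685 to 256330, 646 bp, and 180 bp (255924 to 256103) was covered in all 12 libraries. The summit moved over 163 bp between libraries, from 272 to 435 bp upstream of HHF1, with a median of 365 bp and an SD of 53.1 bp. Of the 169 other divergent regions, 87.0% had an SD as small or smaller. At 4 mg it lay 370, 299 and 414 bp from HHF1, at 20 mg 319, 418 and 435 bp, at 100 mg 388, 395 and 272 bp, and at 500 mg 309, 360 and 324 bp. The ranges of the 4 biomasses overlapped.

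HHT2-HHF2, the second H3 and H4 pair, carried a wide peak that ran into the HHT2 coding sequence. The region is chromosome XIV 576051 to 576726, 676 bp, of which 379 bp (576162 to 576540) was covered in every library. The strongest peak was on average 620 ± 104 bp wide (SD, n = 12), against 313 ± 39.9 bp at HTA2-HTB2, 329 ± 51.4 bp at HTB1-HTA1 and 365 ± 129 bp at HHF1-HHT1. Its summit lay between 261 and 390 bp from HHT2, with a median of 287 bp and an SD of 44.8 bp. Of the 169 other divergent regions, 83.4% had an SD as small or smaller. In 20 mg replicate 1, 20 mg replicate 2 and 100 mg replicate 1 the summit was at 390, 348 and 380 bp, and in the other 9 libraries it was between 261 and 304 bp.

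**Figure D2:**
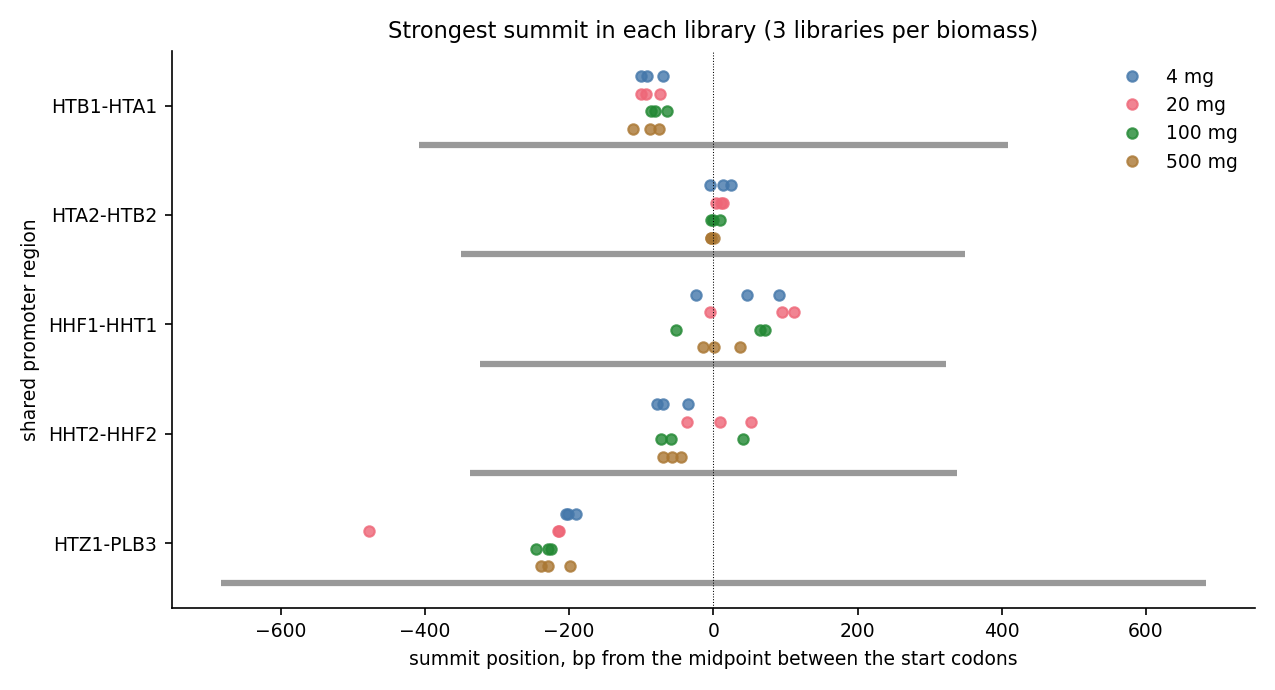
Position of the strongest summit in each library, in bp from the midpoint between the start codons (horizontal axis), for the 5 shared promoter regions marked in every library (vertical axis). Each point is 1 library, coloured by biomass, and grey bars show the extent of each region. HTA2-HTB2 summits fall within 29 bp near the midpoint. HHF1-HHT1 summits spread over 163 bp, HHT2-HHF2 summits over 129 bp and HTZ1-PLB3 summits over 287 bp.

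HTZ1 had the broadest peak of the family. It shares 1365 bp (chromosome XV 303984 to 305348) with PLB3, which encodes a phospholipase B, and 941 bp of this (304107 to 305047) was covered in all 12 libraries. The strongest peak was 1235 ± 192 bp wide (SD, n = 12), from 960 bp in 4 mg replicate 2 to 1463 bp in 20 mg replicate 2. The summit lay between 437 and 492 bp upstream of HTZ1 in 11 libraries and at 205 bp in 20 mg replicate 2. The SD of these summits was 77.0 bp, and 92.3% of the 169 other divergent regions had an SD as small or smaller. PLB3 was marked in no library, since the nearest of these summits was 874 bp from its start codon.

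HHO1 differed from the other genes in where its peak lay. The region it shares with NAN1, which encodes a protein of ribosomal RNA processing, is chromosome XVI 309605 to 310209, 605 bp, and no base of it was covered in all 12 libraries. A summit lay there only in 4 mg replicate 1, 304 bp upstream of HHO1. In 10 of the other 11 libraries the peak that reached into the region had its summit in the HHO1 coding sequence, and in 4 mg replicate 2 that peak ended inside the gene. The covered length of the region ran from 0 bp (4 mg replicate 2) to 465 bp (20 mg replicate 2). HHO1 was the one member with a summit in its coding sequence in all 12 libraries, as were 27.8% of all genes.

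By their median rank over the lists, the histone promoters stood near the top, with HHF1-HHT1 as the exception. Ranks were taken by the deposited −log10 p and given as percentiles of all peaks of the list. These promoters were called in all 12 lists. The medians of other promoters called in all 12 were not set beside them, so a high rank is not shown to be particular to histone genes. The strongest HTZ1 peak had a median percentile of 96.6 over the 12 lists, HHT2-HHF2 94.9, HTA2-HTB2 92.4 and HTB1-HTA1 91.4, whereas HHF1-HHT1 had 26.0. The authors' fold enrichment had a median of 3.34 at HTZ1, 3.10 at HTB1-HTA1, 3.03 at HTA2-HTB2, 2.91 at HHT2-HHF2 and 2.05 at HHF1-HHT1.

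The last place was nearly constant and the first place was not. HHF1-HHT1 was the weakest of the 4 core pairs in 11 of 12 lists, whereas HHT2-HHF2 was the strongest in 7, HTA2-HTB2 in 3 and HTB1-HTA1 in 2. In 100 mg replicate 1, the list with the fewest peaks, the HHT2-HHF2 peak was 619 bp wide but had a fold enrichment of 1.25 at its summit and a percentile of 1.44, and HTZ1 stood at percentile 43.7. In 4 mg replicate 2 the HHF1-HHT1 peak had a fold enrichment of 1.45 and a percentile of 1.35. HTA2-HTB2 stood at percentiles 57.4 and 51.4 in 4 mg replicates 1 and 2. At 500 mg HHF1-HHT1 stood at percentiles 8.69, 8.09 and 8.14, and the other 3 core pairs were between 75.0 and 99.7. The lists differ in length, so a percentile that differs between them shows no change in a promoter.

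**Figure D3:**
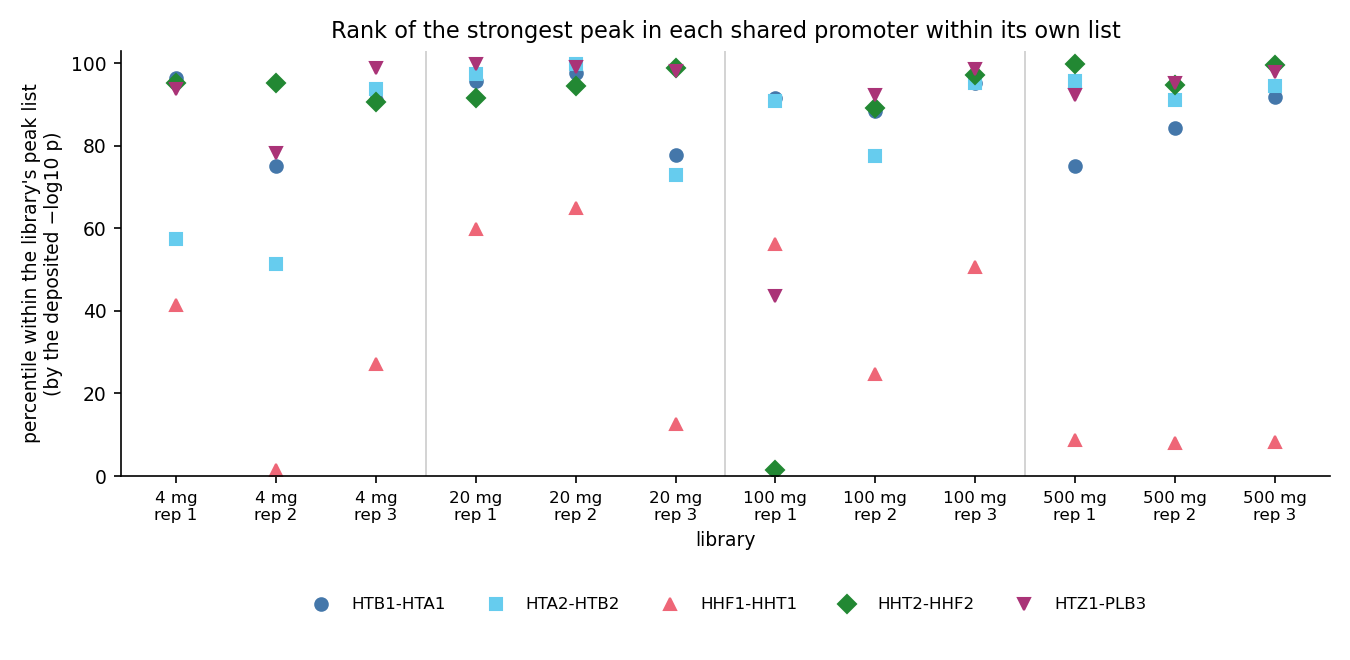
Percentile of the strongest peak of each shared promoter within its own library's list, ranked by the deposited −log10 p (vertical axis), for the 12 libraries (horizontal axis). HHF1-HHT1 (triangles pointing up) is the lowest of the 4 core pairs in every library except 100 mg replicate 1, where HHT2-HHF2 lies at 1.44.

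Over coding sequences, the share of histone genes without a peak was not far from that of genes up to 777 bp long. HTB1, HTA2, HTB2, HHF1 and HHF2 had no such peak in any of the 12 libraries, 5 of 10 genes, where 28.4% of all genes and 40.5% of genes up to 777 bp long (the length of HHO1, the longest member) had none. A peak was counted from an overlap of 50 bp. The members other than HHO1 are 312 to 411 bp long, and no background of genes of that length was taken. HTA1 had one in 1 library, 100 mg replicate 3, and HHT1 in 3, which were 4 mg replicate 3, 20 mg replicate 2 and 20 mg replicate 3. The sources used here do not state how reads with several map positions were handled. The 2 copies of each core gene are alike in coding sequence, so a coding sequence without a peak is not shown to be closed.

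HHT2 was the core gene with the most coding coverage, always at its 5′ end. A peak reached over it in 11 libraries, and the covered length was 120, 0 and 165 bp at 4 mg, 149, 181 and 126 bp at 20 mg, 129, 119 and 168 bp at 100 mg, and 65, 122 and 139 bp at 500 mg, of 411 bp. In 10 of these libraries the peak was the one whose summit lay between the genes. In 100 mg replicate 3 a separate peak had its summit 58 bp into the gene.

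HTZ1 and HHO1 had a peak over the coding sequence in all 12 libraries, 2 of 10 genes, against 34.5% of all genes and 27.6% of genes up to 777 bp. HTZ1 was covered over 264 ± 36.8 bp of 405 bp (SD, n = 12), from 178 to 307 bp. In 7 libraries this was the same peak as in the promoter, and in the other 5 (4 mg replicate 2, 20 mg replicate 3 and the 3 libraries at 100 mg) it was a separate peak with its summit 122 to 158 bp into the gene. All 3 libraries at 500 mg had a single joined peak and all 3 at 100 mg had a split one, while 4 mg and 20 mg each held both forms. All peaks of a list covered 1742 to 2307 kb at 100 mg and 2525 to 2668 kb at 500 mg. Neither a difference between biomasses in this form nor the part of list size in it was tested.

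HHO1 was covered over 572 ± 21.5 bp of 777 bp (SD, n = 12), between 538 and 599 bp, the least variable coverage among the members with a coding peak. Its summit lay 410, 436 and 408 bp into the gene at 4 mg, 119, 417 and 408 bp at 20 mg, 290, 388 and 385 bp at 100 mg, and 406, 323 and 371 bp at 500 mg. The median was 397 bp, near the middle of the gene, and 20 mg replicate 1 stood apart with its summit close to the start codon. The authors' fold enrichment there had a median of 2.74 over the 12 lists, and the peak stood between percentiles 58.7 and 95.1 of its list.

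Past their stop codons, the share of histone genes without a summit was near the background. No summit lay within 500 bp past the stop codon in any library for 7 of 10 histone genes, where 70.2% of all genes had none. HTA1 and HHF2, 2 of 10 genes, had a summit there in all 12 libraries, where 4.78% of all genes did, and HHT1 had one in 5 libraries. The HTA1 summit lay 312 to 369 bp past the stop codon, in the DNA before the start codon of ADK1, the adenylate kinase gene, whose promoter it marks. Its fold enrichment had a median of 3.16 over the 12 lists, and it stood between percentiles 64.3 and 99.6 of its list. The HHF2 summit lay 266 to 346 bp past the stop codon, inside the 3′ end of the convergent gene KTR5, a mannosyltransferase gene, with a median fold enrichment of 2.61. The HHT1 summit lay 446 to 491 bp past the stop codon, inside the 3′ end of IPP1, the inorganic pyrophosphatase gene, and was called in 4 mg replicate 3, 20 mg replicates 2 and 3, and 500 mg replicates 2 and 3. The HTA2-HTB2 pair had no summit within 500 bp past either stop codon in any library.

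Whether peaks over these promoters differed with the biomass used for the assay was asked with the length of the 500 bp window they covered. No histone gene passed the test: 0 of 10 had an adjusted p under 0.05 in the exact permutation test on the variance between the 4 biomasses (15400 distinct assignments, Benjamini-Hochberg adjustment over 3683 genes). None of the 3683 genes did either (0.0%). At an unadjusted p under 0.05, 3 of 10 histone genes stood out, where 18.0% of all genes did, so the count is not far from the background. The median percent of variance between biomasses was 39.6% for the 10 genes and 40.5% for all genes tested. The smallest p the design allows is 6.49e-05. After adjustment over 3683 genes, a gene at this p passes only if several genes reach it together. The lowest adjusted p of any gene was 0.0797 in the exact permutation test. A count of 0 therefore does not show that these promoters were alike between biomasses.

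HTA2 had the lowest unadjusted p of the 3. Its window was covered over 273, 227 and 313 bp at 4 mg, 298, 281 and 295 bp at 20 mg, 295, 283 and 296 bp at 100 mg, and 313, 360 and 341 bp at 500 mg. All 500 mg libraries lay above all 20 mg and 100 mg libraries and met the highest 4 mg library at 313 bp. Of the variance, 58.8% lay between biomasses (exact permutation p = 0.0342, adjusted p = 0.255).

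HTA1 was covered most at 20 mg. The values were 169, 102 and 162 bp at 4 mg, 259, 261 and 205 bp at 20 mg, 205, 170 and 244 bp at 100 mg, and 138, 204 and 145 bp at 500 mg. The 20 mg libraries lay above those at 4 mg and 500 mg and overlapped those at 100 mg (63.2% of the variance, exact permutation p = 0.0416, adjusted p = 0.260). The HTB1 window, which holds the same peak, was covered over 276 ± 53.4 bp, 320 ± 2.31 bp, 312 ± 5.57 bp and 316 ± 33.5 bp in order of rising biomass (SD, n = 3 each). It did not pass (exact permutation p = 0.307, adjusted p = 0.506).

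HHO1 showed the widest swings upstream. Its window was covered over 322, 0 and 58 bp at 4 mg, 415, 465 and 433 bp at 20 mg, 338, 5 and 460 bp at 100 mg, and 45, 49 and 24 bp at 500 mg. The 20 mg libraries were all far above the 500 mg libraries, while 4 mg and 100 mg each held both high and low libraries (61.4% of the variance, exact permutation p = 0.0473, adjusted p = 0.274). The length covered by all peaks of a list was 2506 to 2968 kb at 20 mg and 2525 to 2668 kb at 500 mg, and the number of peaks 6204 to 6439 and 4994 to 5236. The part of list size in these values was not tested.

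**Figure D4:**
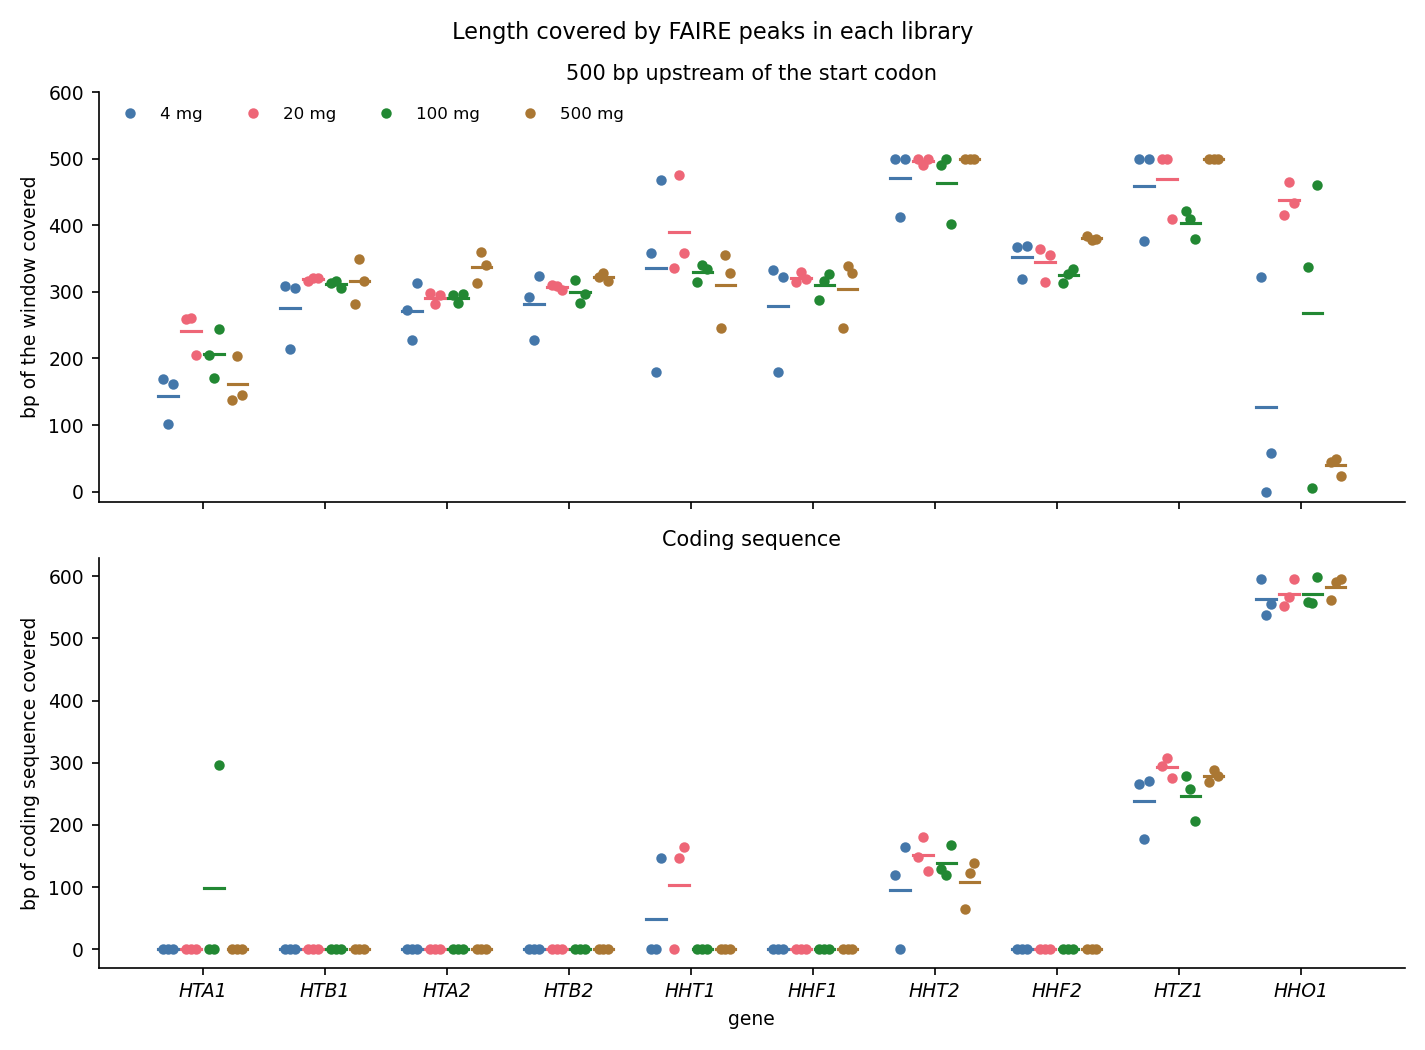
Length in bp covered by peaks (vertical axes) in the 500 bp window before each start codon (top) and in the coding sequence (bottom) for the 10 histone genes (horizontal axis). Each point is 1 library, short lines are the mean of 3 libraries, and colours give the biomass. The HHO1 window runs from 0 to 465 bp, whereas its coding coverage stays between 538 and 599 bp.

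The other 7 genes had unadjusted p-values from 0.0690 (HHF2) to 0.936 (HHF1) in the same exact permutation test. HHF2 was covered over 352 ± 28.0 bp at 4 mg, 345 ± 26.1 bp at 20 mg, 325 ± 10.6 bp at 100 mg and 380 ± 3.21 bp at 500 mg (SD, n = 3 each). Libraries from 500 mg, at 378 to 384 bp, lay above the other 9 (exact permutation test, adjusted p = 0.307). HHT2 and HTZ1 were covered over the full 500 bp in all 3 libraries at 500 mg. At the lower biomasses HHT2 ran from 402 to 500 bp and HTZ1 from 377 to 500 bp, and neither passed (exact permutation p = 0.4 and 0.168).

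Summit positions were tested in the same way for the 8 genes marked in every library. None passed at an adjusted p under 0.05 over 584 genes, nor did any other gene (0.0%), and none of the 8 had an unadjusted p under 0.05, where 6.16% of all genes tested did. The exact permutation p was 0.657 for HTB1, 0.268 for HTA2 and HTB2, 0.613 for HHT1 and HHF1, 0.202 for HHT2 and HHF2 and 0.473 for HTZ1. The HTA2-HTB2 summit lay 361 ± 14.7 bp from HTA2 at 4 mg and 348 ± 2.31 bp at 500 mg (SD, n = 3 each), a difference smaller than the SD at 4 mg.

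The covered length of the coding sequence could be tested for HTA1, HHT1, HHT2, HTZ1 and HHO1, since the other 5 were at 0 bp throughout. None of the 5 passed, with an adjusted p under 0.05 for 0.0% of 4311 genes tested, and none had an unadjusted p under 0.05, against 27.6% of all genes. HTZ1 came nearest, with 238 ± 52.0 bp at 4 mg, 292 ± 16.2 bp at 20 mg, 247 ± 37.0 bp at 100 mg and 279 ± 10.0 bp at 500 mg (SD, n = 3 each). Its exact permutation p was 0.18 and its adjusted p 0.321. For HHO1 the exact permutation p was 0.820. The limit set by the smallest p applies here too, as the lowest adjusted p of any gene in this test was 0.056.

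The distance of the histone summits from the start codon was set beside that of other genes. In windows of 250 bp no histone gene was marked in all 12 libraries, where 2.03% of all genes were. Only HHT1, in 3 libraries, and HTZ1, in 1, had a summit that close. Among 576 other genes marked in all 12 libraries with 500 bp windows, the median distance was 321 bp (quartiles 236 and 385 bp), and the histone genes with 282 bp (HHT1) to 462.5 bp (HTZ1) fell on both sides of it. The gene table holds no transcript ends, and all distances are counted from start codons.

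Genes that regulate, carry or exchange histones were looked at beside the histone genes, in 4 lists of 40 genes. Of these, 7 were marked in all 12 libraries (17.5%, where 9.73% of all genes were) and 22 in none. The 12 regulators of histone transcription, which include the HIR subunits, SPT10, SPT21 and the cell cycle factors SWI4, SWI6 and MBP1, had no member marked in all 12 libraries and 10 marked in none (58.0% of all genes). The 2 exceptions, named after their values were seen, were YTA7, a chromatin boundary ATPase, in 3 libraries and SWI6 in 2. By an overlap of 50 bp or more, HPC2 alone of the 12 regulators had a peak over its window in all 12 libraries (23.6% of all genes). A coding peak in all 12 libraries was found for 3 of the 12 regulators (34.5% of all genes), SPT10, HIR1 and RTT106, and a coding peak in no library for 3 (28.4% of all genes), SPT21, HPC2 and SWI6. These genes too were named after their values were seen.

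Of the 3 genes for CAF-1, the complex that deposits H3 and H4 on newly made DNA, RLF2 and CAC2 were marked in all 12 libraries, with a median fold enrichment of 2.83 and 2.94, and MSI1 was marked in 0. RLF2 and CAC2 were the 2 so marked of 11 genes for histone chaperones and modifiers of new histones (18.2%). Of 13 genes for H2A.Z exchange, 2 were marked throughout (15.4%), BDF1, a bromodomain protein gene, with 2.69 and SWC7, a SWR1 complex subunit gene, with 2.27. The HMG-box protein genes NHP6A (3.11), NHP6B (2.87) and HMO1 (2.77) were marked in all 12 libraries too. CSE4, which encodes the centromeric H3 variant, was at 0 libraries both for a marked promoter and for a coding peak.

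The genes whose percentile profile over the 12 lists was most like the mean of the 5 distinct histone promoters were CIS1, YKL063C, GDT1, COX7 (a cytochrome c oxidase subunit gene) and HXT3 (a glucose transporter gene), out of 576 candidates. Their root mean square differences from that mean were 6.84, 7.63, 8.33, 8.34 and 8.83 percentile points. The mean of the histone promoters lay between percentiles 56.8 and 91.2 of the lists. It blends HHF1-HHT1, with a median percentile of 26.0, with the other promoters, whose medians were 91.4 to 96.6. Likeness to this mean need not be likeness to any single histone promoter. The 12 percentiles of a gene share the depth and enrichment of their libraries, so likeness is a description of these lists.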

How the data were processed

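FAIRE and input DNA were sequenced from 24 samples, and 12 narrowPeak lists, 1 for each FAIRE library against its own input, were analysed. The submitters' processing notes name MACS2 2.1.1.20160309, Bowtie2 2.2.8, bedtools 2.26.0, SAMtools 1.4 and FastQC 0.11.5, and the builds R64 and sacCer3. The sources used here do not state their settings, and read totals were not analysed. The deposited score and the deposited −log10 q-value and −log10 p-value columns, and the deposited fold enrichment (a ratio), came from the authors' peak caller. The score was not used. The lowest −log10 q per list was 1.00 to 1.52.

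Positions, deposited by the authors in bp from 0, were made 1-based. The position of a gene came from a RefSeq table of R64, strands from systematic names (6002 genes, 6000 with a full window). The 10 members, the gene lists and the tests were chosen with earlier results of these data known. All 10 members were described. From the 4 lists, genes marked in all 12 libraries (at most 5 per list) and CSE4 were named, and of other genes the 5 most alike in percentile profile. MSI1 and 7 regulators outside this rule (YTA7, SWI6, SPT10, HIR1, RTT106, SPT21 and HPC2) were named after their values were seen. The exact permutation test used the percent of variance between 4 groups of 3 libraries, over 15400 distinct assignments, with Benjamini-Hochberg adjustment over all genes tested. It was tested on simulated data. Genes with the same value in every list were not tested. Alternatives were windows of 250, 550 and 1000 bp, overlap of 50 bp, noncoding sequence alone, a −log10 q of 5 or more, the 3000 strongest peaks, other overlap rules over coding sequence, mean summit positions, a replicate block and each library left out. Python 3.11.15, numpy 2.4.6, pandas 2.3.3 and matplotlib 3.10.9 were used.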

Additional observations from a re-analysis of the deposited data

How the results depend on the processing

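The 8 promoters marked in all 12 libraries became 0 in windows of 250 bp, 4 at a −log10 q of 5 or more and 4 among the 3000 strongest peaks (HTB1, HTA2, HTB2 and HTZ1 in both), against 2.03%, 8.38% and 5.58% of all genes. The count was 9 in windows of 1000 bp and of 550 bp, by overlap and in noncoding sequence alone, where HTA1 was added each time, and 8 whichever library was left out. The 2 genes with a coding peak throughout became 1 (HHO1) when a summit in the coding sequence was required (27.8% of all genes) and 1 (HHO1) among the 3000 strongest peaks (722 of 6000 genes). Leaving out 4 mg replicate 2 made the count 3, by adding HHT2. It was 2 without any other single library. Counts of genes differing between biomasses stayed at 0 after adjustment for covered promoter length, summit position and covered coding length under all alternatives. Unadjusted, the 3 promoter calls became 0 without 20 mg replicate 1, 100 mg replicate 1 or 500 mg replicate 3, 2 without 4 mg replicate 3 or 100 mg replicate 2 or 3, and 1 without any other library, and they became 2 in windows of 250 bp and 1 in windows of 1000 bp. For summit position 2 genes had an unadjusted p under 0.05 without 4 mg replicate 3. Replicate numbers were shared by the groups, but same-numbered libraries did not deviate together (18 pairs, median correlation of deviations -0.0468, range -0.488 to 0.211, 3 above 0.1). With the replicate block the adjusted counts were 0, 0 and 0, and 2 promoters passed unadjusted. Of 720 values of single genes under these alternatives, 694 kept their call or stayed within 1.5 times the count and 26 did not. Depth limits these lists through the calling threshold: a promoter without a peak is one that was not called.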
